A study of Mus musculus with 2 samples.

Results

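The 10 genes described here are *C1qa*, *C1qb*, *C1qc*, *Apoe*, *Chil3*, *Ccl6*, *Marco*, *Mrc1*, *Ear2* and *Lyz2*, out of 27998 genes in the deposited count tables. They were listed by name, as genes that mark C1q-bearing and alveolar macrophages, and their unique molecular identifiers (UMIs, counted transcript molecules) were followed in single barcodes of 2 mouse lung tumors. The tumors, TKO1 and TKO2, are small cell lung cancers of the TKO model, in which *Rb*, *Trp53* and *Rbl2* are deleted and a *Rosa26* membrane-Tomato or membrane-GFP reporter is carried. Adeno-CMV-cre had been given to the mice at 8 weeks of age, the tumors were harvested 7 months later at a labelled age of 8-9 months, and the strain background was mixed, with 129/SvOla, 129/SVJ and C57BL/6 contributing. Both tumors carry the same 3 deletions, and there was no wild-type or untreated lung beside them. The CMV promoter drives cre without regard to cell type, and counts per gene do not show whether a macrophage had recombined. Each mouse gave 1 dissected tumor, digested, freed of red blood cells and sorted for live cells, and each tumor gave 1 10x Chromium library. With 1 library per tumor no test between tumors was possible. Tumor, mouse and library cannot be told apart.

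Macrophages are the resident phagocytes of the lung. Alveolar macrophages live in the airspaces, clear surfactant and inhaled particles, and in mice express *Chil3*, *Ear2* and *Marco*, while macrophages of the lung tissue and of tumors often express the C1q chains and *Apoe*. C1q is the recognition unit of the classical complement pathway and is assembled from A, B and C chains, encoded by *C1qa*, *C1qb* and *C1qc*. *Apoe* encodes a lipid carrier, *Chil3* encodes a chitinase-like lectin (Ym1), *Ear2* an eosinophil-associated ribonuclease, *Ccl6* a chemokine, *Marco* a scavenger receptor, *Mrc1* the mannose receptor CD206, and *Lyz2* the lysozyme of myeloid cells.

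The promoters of several members are shown to place the genes beside their sequence. In GENCODE M21 (GRCm38) the C1q genes lie side by side on the minus strand of chromosome 4, from 136880129 to 136898803, a stretch of 18675 bases, with gaps of 3616 bases between *C1qb* and *C1qc* and 2851 bases between *C1qc* and *C1qa*. The other members lie on separate chromosomes, *Chil3* on chromosome 3, *Ear2* on 14, *Marco* on 1, *Mrc1* on 2, *Apoe* on 7, *Lyz2* on 10 and *Ccl6* on 11. RefSeq promoter sequences (GRCm38.p6, 250 bases before to 50 bases after the start) matched 9 of the 10 members, with more than 1 entry for *Apoe*. *C1qa* had no entry. The lines below are written 5′ to 3′ on the strand of the gene, for *C1qb* (chr4:136886151-136886450, minus), *C1qc* (chr4:136892865-136893164, minus), *Chil3* (chr3:106167515-106167814, minus) and *Ear2* (chr14:44102404-44102703, plus). Capitals mark matches to AGGAAGT (the core bound by PU.1 and other ETS factors) or TTGCNNAA (a C/EBP motif), read on both strands.
C1qb: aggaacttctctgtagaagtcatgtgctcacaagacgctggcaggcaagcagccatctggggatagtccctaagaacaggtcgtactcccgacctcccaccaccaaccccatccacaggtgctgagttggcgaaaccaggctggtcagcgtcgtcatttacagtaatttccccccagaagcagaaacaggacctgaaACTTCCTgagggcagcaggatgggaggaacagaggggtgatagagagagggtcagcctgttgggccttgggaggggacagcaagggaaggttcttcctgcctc
C1qc: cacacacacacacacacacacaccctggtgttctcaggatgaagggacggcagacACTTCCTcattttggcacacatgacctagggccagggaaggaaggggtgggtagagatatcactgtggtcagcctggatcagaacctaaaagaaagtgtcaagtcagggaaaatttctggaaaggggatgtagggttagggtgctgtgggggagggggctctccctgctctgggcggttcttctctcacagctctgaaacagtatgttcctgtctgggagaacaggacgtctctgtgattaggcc
Chil3: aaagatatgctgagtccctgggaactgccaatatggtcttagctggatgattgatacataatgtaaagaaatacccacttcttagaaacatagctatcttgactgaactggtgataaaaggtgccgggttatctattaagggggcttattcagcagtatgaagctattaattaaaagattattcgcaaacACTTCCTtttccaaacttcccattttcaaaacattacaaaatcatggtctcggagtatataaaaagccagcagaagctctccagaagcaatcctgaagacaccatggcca
Ear2: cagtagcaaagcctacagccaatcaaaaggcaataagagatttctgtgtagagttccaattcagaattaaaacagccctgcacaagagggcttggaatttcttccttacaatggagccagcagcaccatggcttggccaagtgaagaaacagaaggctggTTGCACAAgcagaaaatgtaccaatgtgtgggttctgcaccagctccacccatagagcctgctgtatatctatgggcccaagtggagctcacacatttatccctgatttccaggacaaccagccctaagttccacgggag
AGGAAGT or its reverse complement ACTTCCT stood once in each of 6 of the 11 member promoters, those of *C1qb*, *C1qc*, *Chil3*, *Ccl6*, *Lyz2* and *Mrc1*, and in 9.35% of all 32851 promoters. The match began 53 bases before the start in *C1qb*, 195 in *C1qc*, 60 in *Chil3*, 48 in *Ccl6*, 100 in *Lyz2* and 211 in *Mrc1*. TTGCNNAA stood in 1 of the 11, that of *Ear2*, 90 bases before the start, and in 10.8% of all promoters. TGANTCA, an AP-1 motif, stood in 0 of the 11 and in 7.81% of all promoters. The motifs were chosen after their matches had been seen, and a match is letters in a window, not a bound site.

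Barcodes with more than 200 detected genes were divided by their own counts. A myeloid barcode held at least 5 UMIs summed over *Lyz2*, *Tyrobp* and *Fcer1g*, the last 2 being adaptor chains of myeloid receptors. A tumor-cell barcode held fewer than 5 of these and at least 3 UMIs over 13 neuroendocrine genes. Of 4496 barcodes of TKO1, 138 were myeloid (3.07%, exact Clopper-Pearson 95% interval 2.58 to 3.62%) and 3477 were tumor-cell barcodes. Of 3811 barcodes of TKO2, 104 were myeloid (2.73%, 2.24 to 3.30%) and 2366 were tumor-cell barcodes. Median UMIs were 968 and 1379.5 per myeloid barcode of TKO1 and TKO2, against 1114 and 2235.5 per tumor-cell barcode. The tumors shared 22 barcode sequences, of which 0 were myeloid. At least 3 neuroendocrine UMIs were held by 7 and 3 myeloid barcodes, and 22 and 6 myeloid barcodes lay near the limit with 5 to 9 UMIs of the 3 genes. Because *Lyz2* helped to choose the barcodes, its level there is a description. A barcode with neuroendocrine UMIs and at least 5 UMIs of the 3 genes was counted as myeloid. Low counts of macrophage genes in tumor-cell barcodes are thus in part set by the rule, for *Lyz2* and for genes found with it.

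The name alveolar macrophage was checked against 12 markers. Besides *Chil3*, *Ear2* and *Marco*, the list was found in part. *Krt79*, *Siglecf* and *Cidec* had 0 UMIs in myeloid barcodes of both tumors, *Car4* had 1 in TKO1 and 0 in TKO2, and *Ear1* had 13 and 0. *Itgax*, which encodes CD11c, had 19 and 22 UMIs, *Plet1* had 13 and 21, *Fabp1* had 12 and 4, and *Atp6v0d2*, a subunit of the vacuolar proton pump, had 34 and 63, with 0 in tumor-cell barcodes of both tumors. All 11 markers of the C1q macrophage list had UMIs in both tumors, although *Folr2* had 1 in each. *Chil3*, *Ear2* and *Marco* are therefore called the trio here and not alveolar macrophage genes. Markers of T cells, mast cells and basophils, fibroblasts and endothelium had 0 UMIs in the myeloid barcodes of TKO1, and those of TKO2 held 11 T cell UMIs and 0 of the other 3 lists. NK cell markers had 0 and 28 UMIs, B cell markers 1 and 3, dendritic cell markers 17 and 46, and neutrophil markers 148 and 28. The 10 monocyte markers all had UMIs in both tumors, 182 in TKO1 and 344 in TKO2, with at least 3 in 26 of 138 and 35 of 104 myeloid barcodes. The part of these cells in the results was not tested.

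All 10 members were found in the myeloid barcodes of both tumors and had few UMIs in tumor-cell barcodes. The rule keeps tumor-cell barcodes under 5 UMIs of *Lyz2*, *Tyrobp* and *Fcer1g*. The C1q chains summed to 9476 CPM (UMIs of the gene per 1000000 UMIs of the barcode group; exact Poisson 95% interval 8994 to 9978, 1443 UMIs) in myeloid barcodes of TKO1 and to 11839 (11322 to 12373, 1971 UMIs) in TKO2. In tumor-cell barcodes the same sum was 7.20 CPM (4.92 to 10.2) and 2.30 CPM (1.26 to 3.86). The trio summed to 4998 CPM (4649 to 5366, 761 UMIs) and 1988 CPM (1780 to 2214, 331 UMIs), against 2.92 and 0.658 CPM in tumor cells. Among members the highest tumor-cell level was that of *Apoe*, at 23.2 CPM in TKO1 and 9.21 CPM in TKO2. Intervals of CPM, shares and ratios cover counting error only, and UMIs of the same barcode are not independent of each other.

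**Figure D1:**
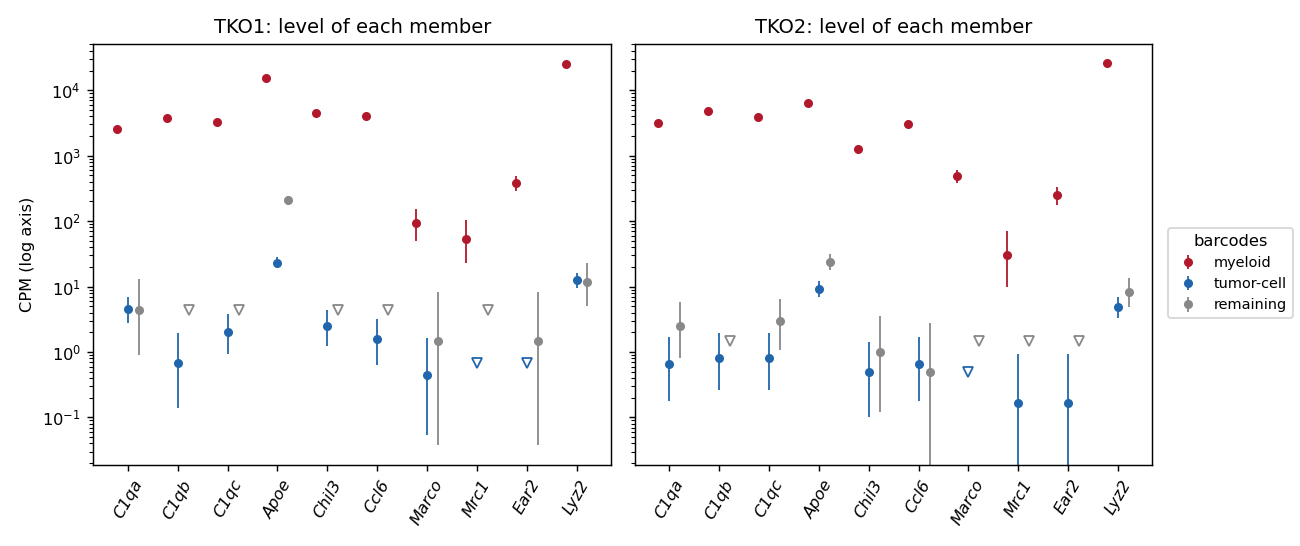
Level of each member in CPM (log axis) in myeloid (red), tumor-cell (blue) and remaining (grey) barcodes of TKO1 and TKO2. Points are levels of the summed UMIs, bars are exact Poisson 95% intervals, and open triangles stand at the limit of 3 UMIs where the count was 0. Myeloid levels run from 52.5 CPM (Mrc1) to 24909 CPM (Lyz2) in TKO1, and the tumor-cell levels lie at or under 23.2 CPM.

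The ratio of myeloid to tumor-cell CPM was at least 4-fold for all 9 members other than *Lyz2*, whose ratio the choice of barcodes sets, in either tumor, where 14.3% of 12045 genes in TKO1 and 18.9% of 11739 genes in TKO2 passed that fold. The log2 ratio of the C1q sum was 10.36 (9.86 to 10.92) in TKO1 and 12.33 (11.58 to 13.20) in TKO2. That of *Apoe* was 9.35 and 9.43. *Mrc1* and *Ear2* had 0 UMIs in tumor-cell barcodes of TKO1, which allows up to 0.675 CPM, so that *Ear2* was at least 564-fold and *Mrc1* at least 77.9-fold higher in myeloid barcodes. *Marco* had 0 UMIs in tumor-cell barcodes of TKO2, which allows up to 0.493 CPM, and was at least 986-fold higher. UMIs of 5 members were held by 1 tumor-cell barcode of TKO1, and in TKO2 0 of 2366 held more than 1 member.

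The C1q chains were lower in TKO1 than in TKO2 by a small amount, each in the same direction. *C1qa* was at 2535 CPM (2288 to 2801) in TKO1 and 3129 CPM (2866 to 3410) in TKO2, a log2 ratio of TKO1 to TKO2 of -0.30 (-0.50 to -0.11). *C1qb* was at 3710 and 4829 CPM, a log2 ratio of -0.38 (-0.54 to -0.22). *C1qc* was at 3231 and 3880.1 CPM, a log2 ratio of -0.26 (-0.44 to -0.09). Per barcode the C1q sum had a median of 2.5 UMIs in TKO1, with a highest of 79, and a median of 15.5 in TKO2, with a highest of 80. The middle of the barcodes thus differed more than the highest. The chains kept similar proportions. *C1qa*, *C1qb* and *C1qc* made up 26.7%, 39.2% and 34.1% of C1q UMIs in TKO1, and 26.4%, 40.8% and 32.8% in TKO2. The median log2 ratio over all 4062 genes with at least 10 UMIs was 0.13, so the C1q ratios lie a little further from that centre than from 0.

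*Apoe* and *Chil3* were higher in TKO1, and *Marco* in TKO2. *Apoe* was at 15098 CPM (14487 to 15728) in TKO1 and 6355 CPM (5978 to 6749) in TKO2, a log2 ratio of 1.25 (1.14 to 1.35). *Chil3* was at 4525 CPM (4193 to 4876) and 1255 CPM (1091 to 1438), a log2 ratio of 1.85 (1.62 to 2.08). *Marco* was at 91.9 CPM (50.3 to 154) and 487 CPM (386 to 605), a log2 ratio of -2.40 (-3.34 to -1.57). These folds exceeded 2 for 2 members in TKO1 and for 1 in TKO2, where 14.2% and 10.5% of the 4062 genes did, so the number of members past this fold was near the share of all genes.

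Single barcodes carried much of these levels. In TKO1 the barcode highest for *Apoe* held 372 UMIs, or 16.2% of all *Apoe* UMIs, and the top 3 held 34.0%. Without it *Apoe* was at 12912 CPM in TKO1. That of *Chil3* held 105 of 689 UMIs in TKO1 (15.2%), and without it *Chil3* was at 3888 CPM. In TKO2 the top 3 barcodes for *Marco*, with 24, 21 and 12 UMIs, held 70.4% of its UMIs, and without the first *Marco* was at 347 CPM. With the top barcode of each tumor left out, an alternative chosen after seeing the data, the log2 ratios were 1.14 (1.03 to 1.26) for *Apoe*, 1.77 (1.53 to 2.02) for *Chil3* and -2.25 (-3.33 to -1.31) for *Marco*.

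*Ccl6*, *Ear2* and *Lyz2* differed less, and *Mrc1* was sparse. *Ccl6* was at 3993 CPM in TKO1 and 3003 CPM in TKO2, a log2 ratio of 0.41 (0.24 to 0.58). *Ear2* was at 381 CPM (289 to 492) and 246 CPM (177 to 334), a log2 ratio of 0.63 (0.03 to 1.24), which was 0.61 (-0.03 to 1.26) without the top barcode of each tumor. *Mrc1* had 8 and 5 UMIs, and its log2 ratio of 0.81 (-0.99 to 2.76) could not be told from 0 at this depth. *Lyz2* was at 24909 and 25953 CPM.

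Transcripts of close copies could have been shared between genes by the counting. The transcript of *Ear2* was 96.4% identical to that of *Ear1* over 713 bases and 94.5% to that of *Ear10* over 678 bases, *Lyz2* was 95.8% identical to *Lyz1* over 1264 aligned positions, and *Chil3* was 94.3% identical to *Chil4* over 1540. *Ear10*, *Ear6* and *Chil4* had 0 UMIs in myeloid barcodes, and *Lyz1* had 4 in TKO1 and 3 in TKO2. *Ear1* had 13 in TKO1 and 0 in TKO2, where *Ear2* had 58 and 41. The levels of *Ear2*, *Lyz2* and *Chil3* are uncertain to that extent.

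Detection was compared after each barcode had been thinned at random to 500 UMIs, which left 112 myeloid barcodes of TKO1, with 26 shallower ones left out, and all 104 of TKO2. A UMI of *C1qa* was then found in 34.8% (26.1 to 44.4%) of myeloid barcodes of TKO1 and 61.5% (51.5 to 70.9%) of TKO2. Before thinning it was 44.2% and 76.0%. *C1qb* was found in 50.9% and 67.3%, and *C1qc* in 48.2% and 60.6%. *Chil3* went the other way, at 57.1% (47.4 to 66.5%) in TKO1 and 24.0% (16.2 to 33.4%) in TKO2. *Apoe* was found in 53.6% and 44.2%, *Ccl6* in 59.8% and 60.6%, *Ear2* in 16.1% and 14.4%, *Marco* in 6.25% and 5.77%, and *Mrc1* in 3.57% and 2.88%. In tumor-cell barcodes at the same depth the largest share of any member was 0.809% in TKO1, for *Apoe*, and 0.338% in TKO2, for *Apoe* and *Lyz2* alike. The mean *Apoe* count at 500 UMIs was 6.29 in TKO1 and 4.15 in TKO2.

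The 3 C1q chains were detected together. At 500 UMIs all 3 were found in 28.6% (20.4 to 37.9%) of myeloid barcodes of TKO1 and 46.2% (36.3 to 56.2%) of TKO2, and 0 of the 3 in 39.3% and 22.1%. In TKO1 *C1qb* was found in 92.3% (79.1 to 98.4%) of barcodes with *C1qa* and in 28.8% (18.8 to 40.6%) of those without. In TKO2 these shares were 89.1% and 32.5%. All 3 chains were found in 0 of 3477 tumor-cell barcodes of TKO1 and 0 of 2366 of TKO2, without thinning. The exact intervals of these shares reach up to 0.106% and 0.156%. Barcodes with at least 5 UMIs of *Lyz2*, *Tyrobp* and *Fcer1g* were kept out of that group by the rule. Pearson correlations of log(1 + UMIs) between chains, over barcodes of 1 library at equal depth and given as a description, were 0.63 to 0.67 in TKO1 and 0.65 to 0.71 in TKO2.

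*Apoe* went with C1q more than with the trio. Its correlation with the C1q chains was 0.37 to 0.41 in TKO1 and 0.33 to 0.42 in TKO2. At 1000 UMIs it was 0.43 to 0.47 in TKO1 but 0.18 to 0.21 in TKO2. That depth left only the deeper myeloid barcodes, 67 of TKO1 and 82 of TKO2. With no thinning the correlation was 0.48 to 0.53 and 0.24 to 0.29, so its size in TKO2 depended on depth. *Apoe* was held by 64.9 to 72.2% of barcodes with a given chain and 36.2 to 46.6% of those without it in TKO1, and by 50.8 to 54.7% and 23.5 to 34.1% in TKO2. With the trio and *Ccl6* the correlations of *Apoe* had a median of -0.02 in TKO1 and -0.09 in TKO2. The correlations of the C1q chains with the trio and *Ccl6* were near 0, with a median of -0.08 in TKO1 and -0.07 in TKO2, which was -0.04 and 0.01 at 1000 UMIs and -0.02 and 0.09 with no thinning. Those of *Chil3* in TKO1 were -0.18 with *C1qa*, -0.25 with *C1qb* and -0.28 with *C1qc*, and in TKO2 these 3 were -0.09, -0.08 and -0.12. In TKO2 the sign depended on depth: at 1000 UMIs the 3 values were -0.02, 0.05 and 0.05, and with no thinning 0.03, 0.12 and 0.05. In TKO1 they stayed negative, at -0.25, -0.27 and -0.34 with 1000 UMIs and -0.24, -0.14 and -0.24 with no thinning. The trio itself held together weakly. *Chil3* and *Ear2* had 0.25 in TKO1 and 0.11 in TKO2, and *Chil3* and *Marco* had 0.03 and -0.12.

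**Figure D2:**
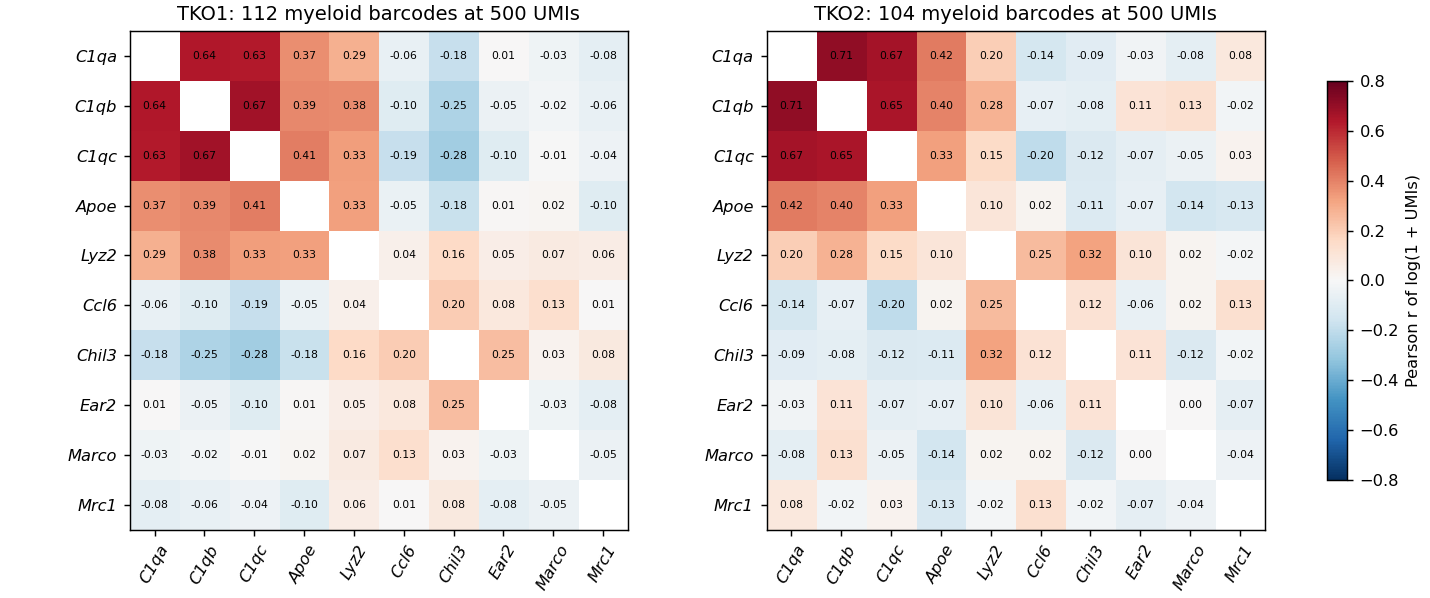
Pearson r of log(1 + UMIs) for each pair of members over myeloid barcodes thinned to 500 UMIs, 112 of TKO1 (left) and 104 of TKO2 (right), with red for positive and blue for negative values. The red block holds C1qa, C1qb and C1qc at 0.63 or more, with Apoe beside it, and the pairs of Chil3, Ear2, Marco and Mrc1 lie between -0.12 and 0.25.

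Among 553 genes found in at least 10% of thinned myeloid barcodes of both tumors, those most like the C1q sum, by the smaller r of the 2 tumors, were *Ctsb* (0.47 in TKO1 and 0.49 in TKO2), *Ms4a7* (0.45 and 0.44), *Apoe* (0.46 and 0.41), *Cd63* (0.39 and 0.38) and *Itm2b* (0.36 and 0.51). *Ctsb* encodes the lysosomal protease cathepsin B, *Ms4a7* a membrane protein of macrophages and *Cd63* a tetraspanin of late endosomes. Those most like the trio sum, among 554 genes, were *Cdkn2a* (0.26 and 0.30), *Lilrb4a* (0.24 and 0.29), *Mgst1* (0.23 and 0.32), *Vamp8* (0.21 and 0.27) and *Atp5a1* (0.22 and 0.19). *Lilrb4a* encodes an inhibitory receptor of myeloid cells. The median r over the genes compared was between -0.03 and 0 for either sum in either tumor.

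Myeloid barcodes were sorted into classes by whether the C1q sum, the trio sum, both or neither reached 2 UMIs. TKO1 had 33 barcodes with C1q alone (23.9%, 17.1 to 31.9%), 38 with the trio alone (27.5%, 20.3 to 35.8%), 44 with both (31.9%, 24.2 to 40.4%) and 23 with neither (16.7%, 10.9 to 24.0%). TKO2 had 49 with C1q alone (47.1%, 37.2 to 57.2%), 4 with the trio alone (3.85%, 1.06 to 9.56%), 37 with both (35.6%, 26.4 to 45.6%) and 14 with neither (13.5%, 7.56 to 21.6%). The trio without C1q was thus a large class in TKO1 and a small one in TKO2, and the other classes had overlapping intervals except for C1q alone. After thinning to 500 UMIs, chosen after seeing the data, the trio-alone class held 28.6% of barcodes in TKO1 and 5.77% in TKO2. Depth differed between classes, with median UMIs of 1114 for C1q alone, 731 for the trio alone and 1146 for both in TKO1. A class is a range of counts and not a cell type. In TKO1 10 barcodes of the C1q-alone class held 1 trio UMI, and 9 of the trio-alone class held 1 C1q UMI.

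**Figure D3:**
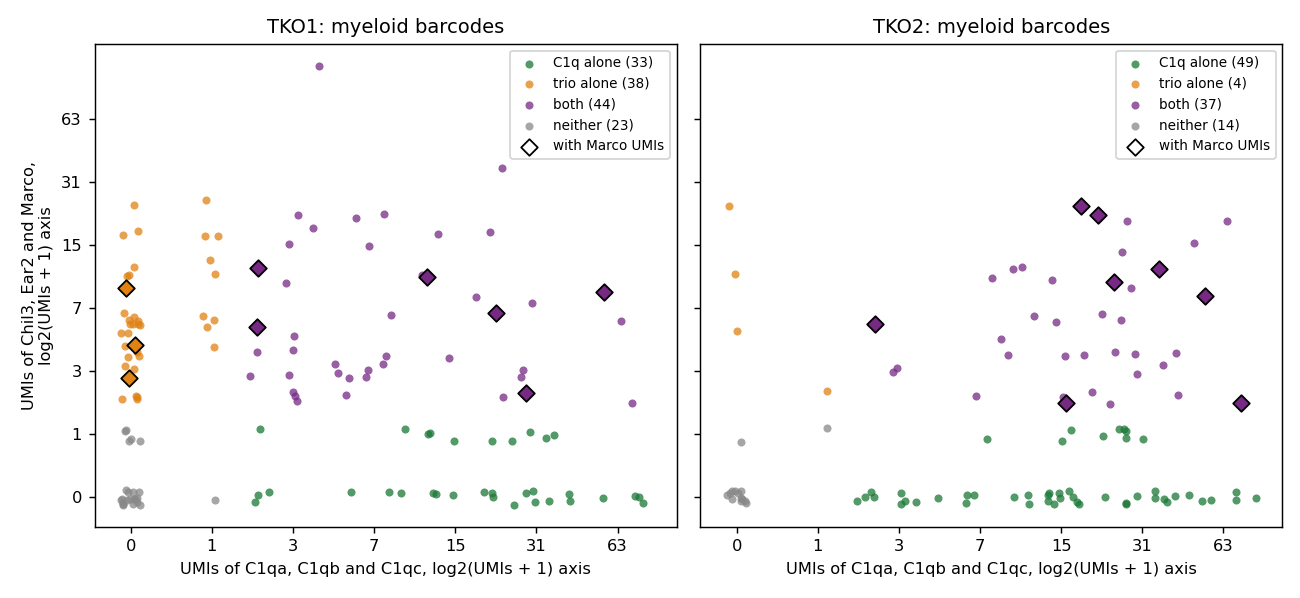
C1q UMIs (C1qa, C1qb and C1qc, horizontal) and trio UMIs (Chil3, Ear2 and Marco, vertical) of each myeloid barcode on log2(UMIs + 1) axes with a small seeded jitter, 138 barcodes of TKO1 (left) and 104 of TKO2 (right), coloured by class. Diamonds are barcodes with Marco UMIs, 9 in TKO1, of which 3 had the trio alone, and 8 in TKO2, all of the class with both.

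In TKO1 barcodes with C1q alone carried more lysosomal and MHC class II transcripts than barcodes with the trio alone. *Apoe*, which the class rule did not use, was at 34998 CPM (33317 to 36741, 26 of 33 barcodes) with C1q alone, 10973 CPM (10098 to 11904) with both and 1466 CPM (1085 to 1938, 12 of 38 barcodes) with the trio alone, a log2 ratio of C1q alone to trio alone of 4.58 (4.17 to 5.02). Without the highest barcode of each class the ratio was 4.64. *Ccl6* went the other way, at 1959 CPM (1577 to 2405) with C1q alone and 4308 CPM (3633 to 5072) with the trio alone, a log2 ratio of -1.14 (-1.53 to -0.75). *Lyz2* was at 29552 and 20554 CPM.

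The lists of other genes are described by how many of their members had an interval of the ratio that excluded 0, which 8.31% of 1360 genes did on the higher side and 10.7% on the lower. All 8 lysosome genes were higher with C1q alone than with the trio alone, with a median log2 ratio of 1.12 against -0.09 over all genes. *Ctsb* was at 5359 CPM (4714 to 6068) against 509 CPM (296 to 814), a log2 ratio of 3.40, and *Lgmn*, which encodes legumain, had a log2 ratio of 2.41. *Ctsd* had the smallest, 0.58 (0.17 to 1.01). Of 5 MHC class II genes with at least 10 UMIs, 4 were higher, with a median of 1.78. *Cd74*, the invariant chain, was at 13883 CPM (12832 to 14997) against 3231 CPM (2651 to 3901), and *H2-Ab1* at 8932 against 2304 CPM.

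Macrophage markers outside the C1q chains had the same direction. *Ms4a7* had 89 UMIs with C1q alone and 0 with the trio alone, and was 21.3-fold higher with 3 UMIs in place of 0. *Trem2*, a lipid-sensing receptor, had 53 UMIs and 1, a log2 ratio of 5.25 (2.71 to 10.58). *Aif1* had 27 and 0, and *C3ar1* 14 and 0. *Cebpb*, a transcription factor of myeloid cells, was lower with C1q alone, at 1098 CPM (817 to 1443) against 3979 CPM (3332 to 4716), a log2 ratio of -1.86. *Csf2rb*, the shared beta chain of the GM-CSF receptor, had 1 UMI against 9, a log2 ratio of -3.65 (-9.10 to -0.79). None of the 5 lipid-handling genes with enough UMIs had an interval that excluded 0. The trio-alone class also held 99 UMIs of 5 of the 7 neutrophil markers (2962 CPM), 72 of them in 1 barcode, against 2 UMIs with C1q alone, with *Mmp9* and *Ngp* at 0. Without barcodes holding at least 3 neutrophil UMIs, an alternative chosen after seeing the data, the ratios of *Apoe*, *Ctsb*, *Cd74*, *Cebpb* and *Ccl6* were 4.35, 3.35, 1.93, -1.87 and -1.22.

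**Figure D4:**
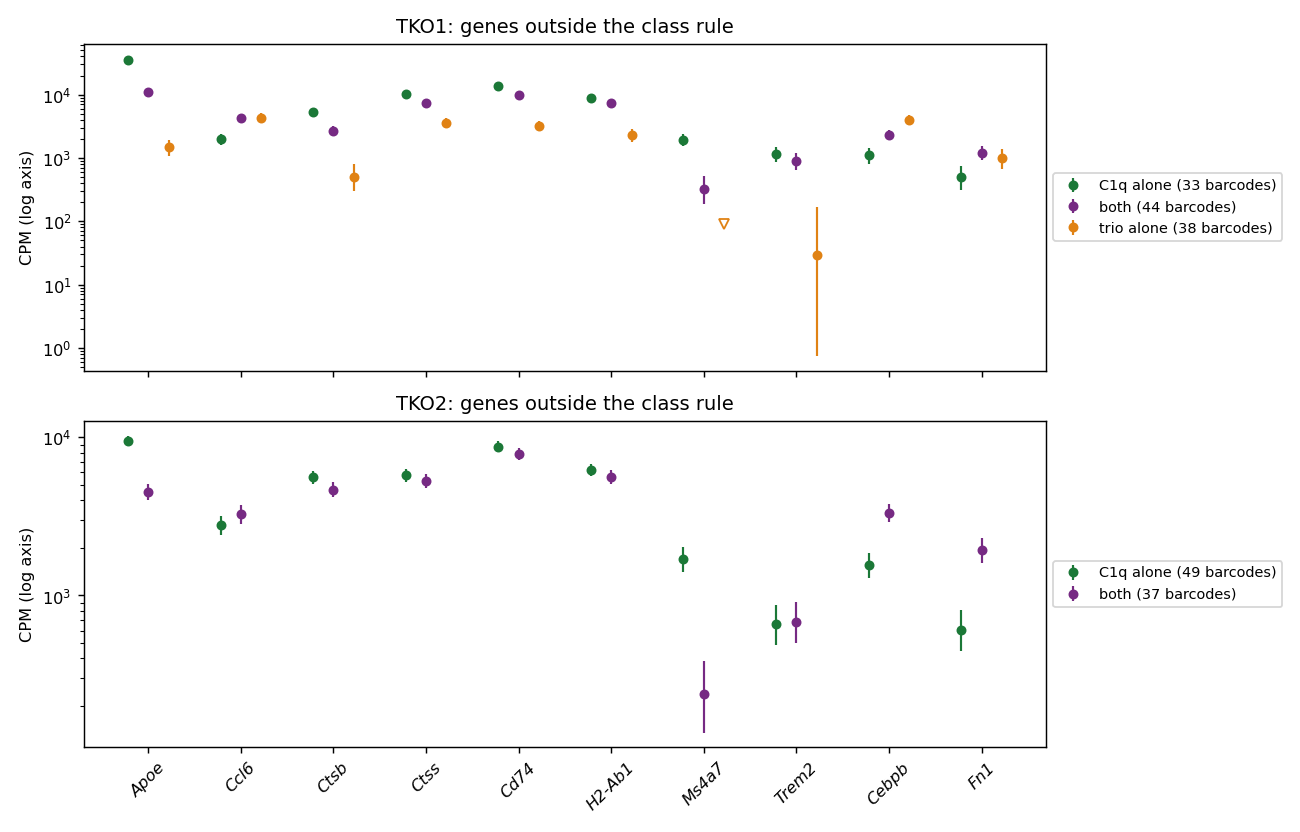
CPM (log axis) of genes that the class rule did not use, in TKO1 (top, C1q alone, both and trio alone) and TKO2 (bottom, C1q alone and both), with exact Poisson 95% intervals and an open triangle at the limit of 3 UMIs for Ms4a7 with the trio alone. In TKO1 Apoe falls from 34998 CPM with C1q alone to 1466 CPM with the trio alone and Cebpb goes from 1098 to 3979 CPM, and in TKO2 Apoe, Ms4a7, Cebpb and Fn1 are apart while Ctss, Cd74 and Trem2 are close. The TKO2 class with both mixes 8 barcodes with Marco UMIs (Fn1 at 4609 CPM, Cd74 at 1843) and 29 without (750 and 10440).

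In TKO2 the trio-alone class had 4 barcodes, so C1q alone was compared with both. *Apoe* was at 9526 CPM (8844 to 10246) with C1q alone and 4535 CPM (4040 to 5073) with both, a log2 ratio of 1.07 (0.88 to 1.27). In TKO1 the same comparison gave 1.67 (1.54 to 1.81). Barcodes with 0 *Apoe* UMIs lay in either class of TKO2, among them a C1q-alone barcode with 71 C1q UMIs. *Ms4a7* was at 1697 and 238 CPM in TKO2, a log2 ratio of 2.83 (2.08 to 3.68), and in TKO1 the ratio was 2.57 (1.82 to 3.42). *Ccl6* had a ratio of -0.23 (-0.51 to 0.05) in TKO2 and -1.15 (-1.52 to -0.80) in TKO1, so that its lower level with C1q alone was not detectable in TKO2. With the C1q-alone class limited to barcodes with 0 trio UMIs, a limit chosen after seeing the data, it was -0.64 (-0.96 to -0.32). *Lyz2* was lower with C1q alone in TKO2, with a ratio of -0.67 (-0.76 to -0.57), or -1.15 with that limit, where that of TKO1 was 0.04 (-0.07 to 0.15). *Cebpb* was lower with C1q alone in both tumors, by -1.11 in TKO2 and -1.08 in TKO1. The intervals of 6.57% of 2069 genes lay on the higher side and of 6.96% on the lower in TKO2. Lysosome and MHC class II genes did not separate these classes as wholes there, with 1 of 8 lysosome genes higher (*Ctsb*), 1 lower (*Cd68*), and 0 of 5 MHC class II genes either way. The TKO2 class with both was itself mixed. In its 8 barcodes with *Marco*, described below, *Cd74* was at 1843 CPM and *Cebpb* at 5045 CPM. In its other 29 these were at 10440 and 2594 CPM. Their part in the class ratios was not tested. Between C1q alone and both in TKO1, 4 of 8 lysosome and 3 of 5 MHC class II genes were higher with C1q alone. There 92 of all 1627 genes with enough UMIs were higher and 105 lower. Against the 4 trio-alone barcodes of TKO2, 21 of all 1333 genes with enough UMIs were higher with C1q alone and 63 lower, with a median of -0.90. These 4 barcodes held 4368 UMIs, against 76005 with C1q alone, and a gene with 0 UMIs in them was set to 3. That puts sparse genes under 0, so the median is no centre for reading the lists. Of 5 MHC class II genes 0 were higher and 2 lower, *H2-Aa* by -0.75 (-1.19 to -0.28) and *H2-Ab1* by -0.76 (-1.20 to -0.29), with a median of -0.61. Of 8 lysosome genes 2 were higher and 0 lower, with a median of 0.33.

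In TKO2 the share of *Marco* barcodes that held *Chil3* could not be told from that of all myeloid barcodes. In TKO1 all 9 barcodes with *Marco* held *Chil3*, as did 32 of 42 barcodes with *Ear2* and 63.0% of all myeloid barcodes. In TKO2 1 of 8 barcodes with *Marco* held *Chil3* (12.5%, 0.316 to 52.7%), where 32.7% of all myeloid barcodes did, while 15 of 27 with *Ear2* held *Chil3*. The *Marco* counts were 1 to 3 UMIs per barcode in TKO1, and 24, 21, 12, 8, 7, 6, 2 and 1 in TKO2. All 8 *Marco* barcodes of TKO2 held at least 2 C1q UMIs, with a median of 23.5, and 2 of the 8 held *Apoe*. Most myeloid barcodes of TKO2 reached 2 C1q UMIs, 49 with C1q alone and 37 with both, out of 104. The median C1q sum over all of them was 15.5, and 51 held *Apoe*. The *Marco* barcodes had a median depth of 2340.5 UMIs. It was 1434 for the 29 barcodes of the same class without *Marco*, 1850 for the whole class and 1379.5 for all myeloid barcodes. The *Marco* barcodes were singled out after their values had been seen, and the difference between the tumors in what *Marco* went with was not tested, nor was the part of depth.

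**Figure D5:**
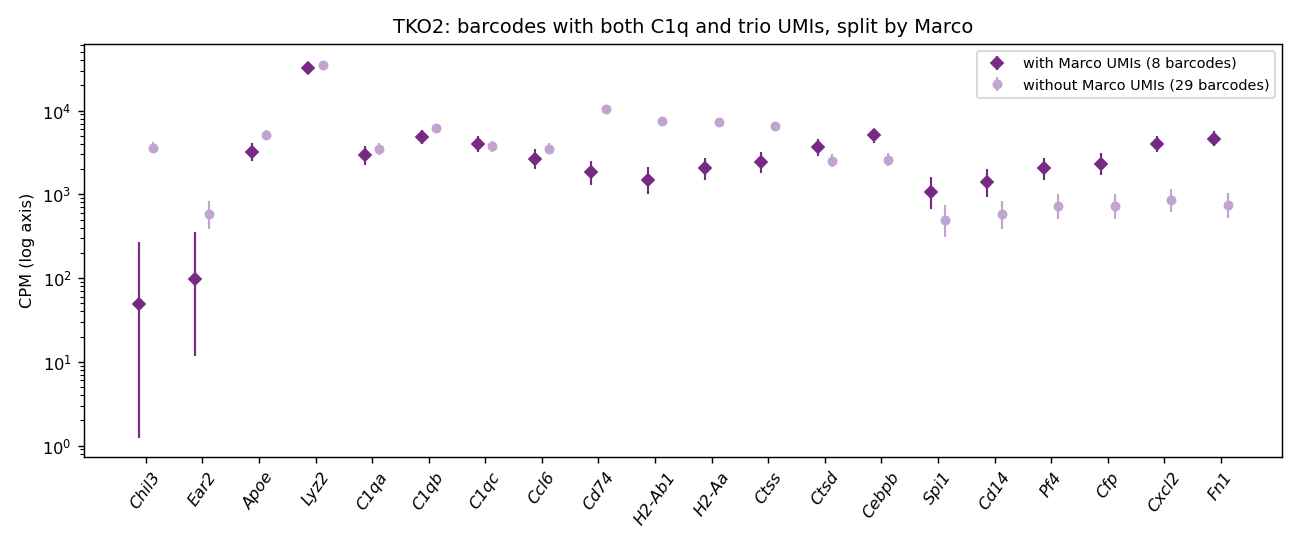
CPM (log axis) of listed genes in the 37 TKO2 barcodes with both C1q and trio UMIs, split into 8 with Marco UMIs (dark diamonds) and 29 without (light circles), with exact Poisson 95% intervals. Cd74, H2-Ab1 and H2-Aa are lower in the barcodes with Marco, and Cfp, Cxcl2 and Fn1 are higher. The distance for Chil3 and Ear2 is set by the class rule. C1qa and C1qc overlap, and the rule needs C1q UMIs on both sides.

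The 8 *Marco* barcodes of TKO2 were set beside the 29 barcodes of the same class without *Marco*. Because the class needs 2 trio UMIs, barcodes without *Marco* could enter it only through *Chil3* or *Ear2*, so the levels of those genes on either side follow from the rule and are not compared. The ratios of other genes also set *Marco* barcodes beside barcodes chosen for *Chil3* or *Ear2*. They are not ratios to all barcodes without *Marco*. *Fn1*, which encodes fibronectin, was at 4609 CPM (95 UMIs) with *Marco* and 750 CPM (35 UMIs) without, a log2 ratio of 2.62 (2.05 to 3.22). *Cxcl2*, a neutrophil-attracting chemokine, was at 3978 and 858 CPM, a ratio of 2.21 (1.65 to 2.80), and *Cfp*, which encodes properdin of the alternative complement pathway, at 2329 and 729 CPM, a ratio of 1.68 (1.01 to 2.35). *Fn1* is on the list of 10 monocyte markers. Together these had 111 UMIs (3 to 31 per barcode, 5385 CPM) with *Marco* and 60 (0 to 17, 1286 CPM) without. With *Fn1* set aside the counts were 16 and 25, out of 20614 UMIs in all with *Marco* and 46646 without, so they are not counts at equal depth. In the *Marco* barcodes *Ly6c2*, *Plac8*, *Ccr2* and *Ace* of that list were at 0. *Ifitm6*, of the same list, had 7 UMIs and 4, a ratio of 1.99 (0.01 to 4.21). The part of these markers in the result was not tested.

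MHC class II transcripts were lower in the *Marco* barcodes than in the other 29 of the class. *Cd74* was at 1843 CPM against 10440 CPM, a log2 ratio of -2.50 (-3.02 to -2.02), *H2-Ab1* had -2.31 (-2.89 to -1.78), and 4 of 5 genes of the list were lower, as were 5 of 8 lysosome genes, with 1 higher, where the intervals of 7.69% of 1079 genes lay on the lower side and of 10.3% on the higher. In 6 of the 8 barcodes *Cd74* had 0 or 1 UMI and *H2-Ab1* 0, while *Fn1* had 5 to 28 UMIs and *Cxcl2* 9 to 23. The other 2 barcodes, with 7 and 1 *Marco* UMIs, held 7 and 29 UMIs of *Cd74* and 0 and 2 of *Fn1*. The class needs at least 2 C1q UMIs on both sides of this split, so the presence of C1q follows from the rule. *C1qa* was at 2911 against 3494 CPM, *C1qb* at 4851 against 6238 and *C1qc* at 3978 against 3752. Their ratios were -0.26 (-0.72 to 0.17), -0.36 (-0.71 to -0.03) and 0.08 (-0.31 to 0.47). Without the barcode highest for the gene on each side they were -0.70 (-1.26 to -0.17), -0.57 (-0.95 to -0.20) and -0.08 (-0.53 to 0.36). Other genes were treated in the same way, so the barcodes left out differ from gene to gene. The ratios were then 3.03 for *Fn1*, 2.32 for *Cxcl2*, 2.01 for *Cfp* and -4.35 for *Cd74*. That of *Pf4* (platelet factor 4), 1.48 with all barcodes, was 0.62 (-0.55 to 1.72) without its highest barcodes, so it rested on 1 barcode with 30 UMIs.

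The limits of at least 5 *Fn1* UMIs and at most 1 of *Cd74* were taken from those 6 barcodes, which therefore meet them. Over all 104 myeloid barcodes of TKO2, 10 held at least 5 *Fn1* UMIs and at most 1 of *Cd74*. The other 4 had 0 *Marco* UMIs. All 10 held at least 2 C1q UMIs and at least 1 of *Cxcl2*, and 2 held *Chil3*. Among all 104, 49 had C1q alone and 37 both, so at least 2 C1q UMIs were common. In TKO1 2 of 138 met the same limits, and 0 of these held *Marco*. Counts this small were not tested.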

How the data were processed

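The 2 libraries were single-cell RNA libraries of whole dissociated tumors, and the files used are the count tables that the authors deposited, holding UMI counts per gene and barcode, not normalized. The submitters' processing notes name Cell Ranger, Seurat and mm10 without versions. All further values were computed with Python 3.11.15 (pandas 2.3.3, scipy 1.17.1, numpy 2.4.6), and plots were drawn with matplotlib 3.10.9. The members and gene lists were chosen with earlier results of these data known. Barcodes with over 200 genes were kept, and no doublet caller was run. Myeloid barcodes with 3 or more neuroendocrine UMIs were left out in an alternative instead.

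UMIs were summed over the barcodes of a group and given as CPM with exact Poisson intervals, shares with exact Clopper-Pearson intervals and log2 ratios with exact conditional binomial intervals, all at 95%. Where 1 side of a ratio had 0 UMIs, 3 UMIs were put in its place. Such a ratio is a bound only if the count of the other side is taken as exact. For genes other than the members, ratios were counted where both sides together held at least 10 UMIs. For shares and correlations each barcode was thinned without replacement to 500 UMIs with seed 1. There is 1 library per tumor, so no p-value was computed. The named genes are the members, the genes of the rule and of the listed pathways and cell types, close copies, and the 5 genes most like each sum. The steps were tested on simulated data. Alternatives changed the limits on genes and UMIs, the depth of thinning and the class limit, and some were chosen after seeing the data. Copies were aligned by blastn 2.17.0, using the longest coding transcript of each gene in GENCODE M21.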

Additional observations from a re-analysis of the deposited data

Results flagged for a closer look

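*Apoe* was also found in barcodes that were neither myeloid nor tumor-cell barcodes, which the comparisons above do not use. In TKO1 these 881 barcodes held 141 *Apoe* UMIs in 47 barcodes, 207.8 CPM (175 to 245), where tumor-cell barcodes were at 23.2 CPM, a log2 ratio of 3.17 (2.79 to 3.55). In TKO2 the 1341 such barcodes held 49 UMIs in 25 barcodes, 24.1 CPM (17.8 to 31.9), against 9.21 CPM, a log2 ratio of 1.39. The highest barcode held 17 of the 141 UMIs in TKO1 and 15 of the 49 in TKO2. These barcodes had median UMIs of 596 in TKO1 and 1331 in TKO2. Club cell markers were at 112704 CPM in those of TKO1 (at least 3 UMIs in 167 barcodes) and 3636 CPM in those of TKO2 (15 barcodes), and alveolar type 2 markers at 895 CPM (60 barcodes) and 29.0 CPM (6 barcodes). Their part in the *Apoe* level was not tested.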

How the results depend on the processing

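With 1 library per tumor, no value carries an estimate of variation between mice. No paired analysis was possible because no result comes from a test and each tumor has 1 library. Depth limits *Marco* and *Mrc1*, which had at most 81 and 8 UMIs in the myeloid barcodes of a tumor, and it limits the classes, which rest on whether a sum reached 2 UMIs. The choice of myeloid barcodes used *Lyz2*.

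Of 112 values, 95 stayed within their interval or band and 17 did not. They cover summed levels, their ratios between tumors, classes, C1q co-detection and the number of members at least 4-fold higher in myeloid barcodes. That number has no interval, includes *Lyz2* and was judged against a fixed band, so it shows little about stability. Of 490 values for single genes, 433 stayed within their interval and 57 moved. These include the ratios of both sums between myeloid and tumor-cell barcodes. Only ratios with a main interval that excluded 0 could be counted as reversed, and 0 of them were. They include the ratios of myeloid to tumor-cell barcodes, which lay far from 0. Ratios with an interval across 0 could change sign without being counted. Levels and shares have no direction, so for them this count shows nothing. Correlations, which are not among the values counted, changed sign with depth for the C1q chains and *Chil3* in TKO2. The C1q sum of TKO1 (9476 CPM) was 9980.2 CPM with over 500 genes per barcode, 10140.1 with a limit of 10 UMIs for myeloid barcodes and 10174 without barcodes holding neuroendocrine UMIs, where its trio sum was 5442. In TKO2 the C1q sum was 11205 with a limit of 3 UMIs and 12395 without such barcodes. The log2 ratio of the C1q sum was -0.20 with over 500 genes and -0.22 with barcodes chosen by *Tyrobp* and *Fcer1g* alone. The *Apoe* ratio rose to 1.63 with over 500 genes. The class with both sums made up 45.7% of TKO1 and 46.2% of TKO2 with a limit of 1 UMI, 23.9% of TKO1 with a limit of 3, and 19.6% and 17.3% after thinning to 500 UMIs, where neither made up 26.0% of TKO2. All 3 C1q chains were found in 43.3% of TKO1 and 64.6% of TKO2 at 1000 UMIs (67 and 82 barcodes), and in 72.1% of TKO2 with no thinning. The causes were not tested.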

Other observations

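Barcodes with neither sum were a mixture. In TKO1 these 23 barcodes held *Ccl6* at 7321 CPM (6170 to 8624), but 68 of its 143 UMIs lay in 1 barcode. *Cd209a*, a lectin of dendritic cells, had 17 UMIs in them, 12 in 1 barcode, and 0 UMIs in the other 3 classes of TKO1. Neuroendocrine genes had 50 UMIs there, with 3 of the 23 barcodes holding at least 3. In TKO2 the 14 barcodes with neither sum held *Cd74* at 11189 CPM (9730 to 12805), 81 of its 211 UMIs in 1 barcode.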
